A study of Mus musculus with 8 samples.

Results

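The 10 genes described here encode plasma membrane amino acid transporters: Slc3a2, Slc7a5, Slc7a11, Slc7a1, Slc7a3, Slc1a4, Slc1a5, Slc38a1, Slc38a2 and Slc6a9. They were taken by symbol from the 41325 gene symbols of each library, without a filter on level. The list was chosen with earlier results of these data known, so it is not blind to the values. Of the 10, 9 were among the 11513 genes with an RPKM (reads scaled by exon length and by the mapped reads of the library) above 1 in at least 1 library. The exception was Slc7a3.

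C3H10T1/2 cells are a mouse mesenchymal stem cell line that can be turned into adipocytes in culture. RNA-seq was carried out on 4 lines, shControl (genotype given as WT), shKDM4D, shNFIB and shMLL1 (knockdown of the histone demethylase KDM4D, of the transcription factor NFIB, and of the histone methyltransferase MLL1, gene Kmt2a), at day 0 and day 5, with 1 library for each of the 8 conditions. All lines received the same treatment: cells 2 days past confluence (day 0) were given insulin, dexamethasone and isobutylmethylxanthine until day 2, then insulin for 2 days, then serum-containing medium alone. The knockdown lines were puromycin-resistant clones carrying pLKO.1 shRNA vectors, with at least 2 clones made per target; the labels do not say which clone was sequenced, so a difference between lines and a difference between clones cannot be told apart. In bulk RNA of this kind, fewer cells of a type and less RNA per cell cannot be told apart either.

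The libraries held 15800000 to 38200000 mapped reads, and the 9 expressed members had between 63 reads (Slc6a9, shNFIB, day 5) and 10937 reads (Slc38a2, shMLL1, day 0) in a library. With 1 library per condition there was no replicate and no test of 1 condition against another: each log2 ratio below is followed by its exact 95% interval, which covers counting error only, and a gene is counted as higher or lower where its RPKM differed by more than 2-fold. Nfib was lower in shNFIB than in shControl, with log2 ratios of -2.10 (-2.22 to -1.98) before and -2.33 (-2.44 to -2.22) after the 5 days. Kmt2a was lower in shMLL1, with -1.37 (-1.47 to -1.27) and -1.70 (-1.81 to -1.58). Kdm4d was close to the counting floor throughout (0.0179 to 0.235 RPKM), and its ratio in shKDM4D at day 5 was -1.86 (-3.94 to -0.17), while at day 0 too few reads were present to check the label. Of the mesenchymal markers, Vim, Ly6a and Cd44 were high in every library, Nt5e was near 0 in all 8 (at most 0.0218 RPKM), and Thy1, at 25.0 and 22.6 RPKM in shControl, stood at 0.0171 and 0.139 in shKDM4D, 0.0179 and 0.0632 in shNFIB, and 11.8 and 11.1 in shMLL1. The 7 adipocyte markers summed to 777 RPKM in shControl at day 5 against 38.6 in shKDM4D, 12.01 in shNFIB and 12.3 in shMLL1, and to between 4.09 and 10.95 at day 0.

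Amino acids cross the plasma membrane on carriers of several families. The SLC7 light chains such as LAT1 (Slc7a5) and xCT (Slc7a11) exchange one amino acid for another and reach the cell surface only when joined to the glycoprotein 4F2hc (CD98), made by Slc3a2. The SLC7A1 and SLC7A3 proteins carry arginine and lysine without a heavy chain, ASCT1 and ASCT2 (Slc1a4 and Slc1a5) exchange small neutral amino acids and glutamine with sodium, SNAT1 and SNAT2 (Slc38a1 and Slc38a2) concentrate neutral amino acids, and GlyT1 (Slc6a9) takes up glycine. Many of these genes are known targets of ATF4, the transcription factor made when amino acids are scarce or the endoplasmic reticulum is stressed, which binds a C/EBP-ATF composite element (CARE).

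**Figure D1:**
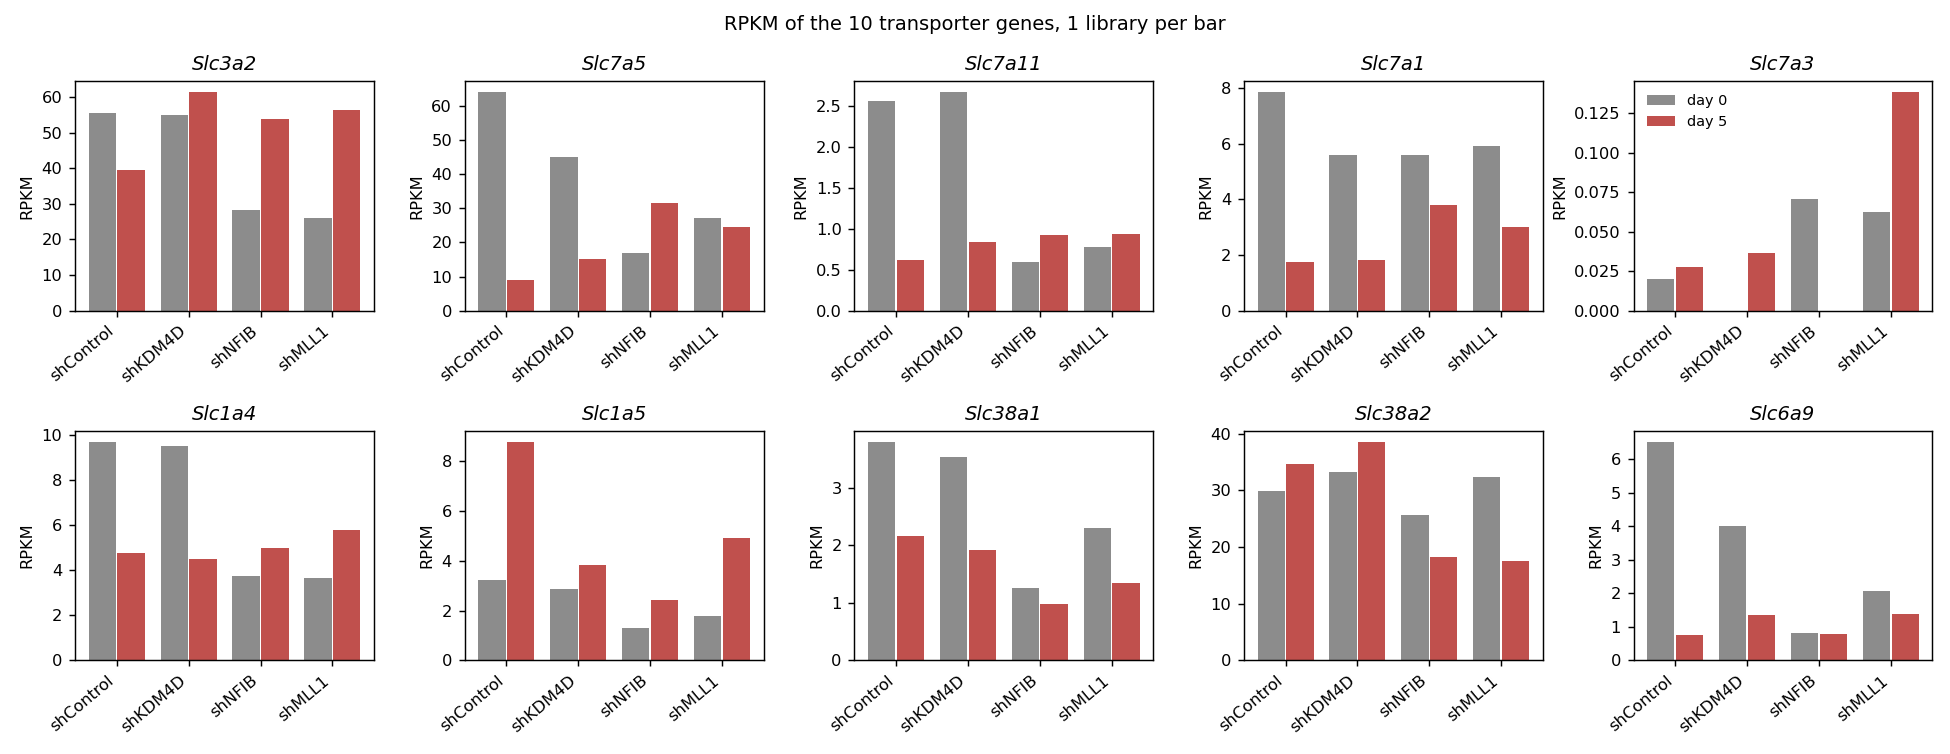
RPKM of each of the 10 genes (1 panel per gene, each with its own linear axis from 0) in the 4 lines at day 0 (grey) and day 5 (red), with 1 library per bar and no error bar. At day 0, shControl and shKDM4D stand above shNFIB and shMLL1 for Slc3a2, Slc7a5, Slc7a11 and Slc1a4, and Slc7a3 does not exceed 0.139 RPKM.

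Slc3a2 (chr19:8706882-8723369, minus strand; coordinates here and below are of GRCm38) encodes the heavy chain. Its RPKM at day 0 was 55.6 in shControl and 54.9 in shKDM4D but 28.1 in shNFIB and 25.9 in shMLL1. At day 5 it was 39.4, 61.4, 53.9 and 56.5 in the same order of lines. The 2 lines that began low reached the level of the others, and shControl ended lowest. From day 0 to day 5 the log2 ratios of shControl, shKDM4D, shNFIB and shMLL1 were -0.50 (-0.56 to -0.43), 0.16 (0.10 to 0.22), 0.94 (0.85 to 1.02) and 1.12 (1.06 to 1.18). Only the shMLL1 ratio exceeded 2-fold, and it stayed at 1.01 with Gapdh as the reference but came to 0.91 with median-of-ratios scaling and 0.97 with quantile normalization. Against shControl at day 0, Slc3a2 had a log2 ratio of -0.02 (-0.08 to 0.04) in shKDM4D, -0.98 (-1.06 to -0.91) in shNFIB and -1.10 (-1.16 to -1.04) in shMLL1, and at day 5 all 3 knockdown lines were above shControl by less than 2-fold, with 0.64 (0.57 to 0.71), 0.45 (0.38 to 0.53) and 0.52 (0.46 to 0.58).

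Slc7a5 (chr8:121881150-121907694, minus strand) encodes LAT1, the carrier of leucine and other large neutral amino acids, and it had the widest swing among the abundant members. In shControl it stood at 64.1 RPKM at day 0 and 9.03 at day 5, and in shKDM4D at 45.1 and 15.3. In shNFIB the order was the opposite, 16.9 at day 0 and 31.4 at day 5, and in shMLL1 the 2 days were close, 27.2 and 24.7. The change over time was -2.83 (-2.95 to -2.71) in shControl and -1.56 (-1.66 to -1.47) in shKDM4D, against 0.89 (0.79 to 1.00) in shNFIB and -0.14 (-0.21 to -0.07) in shMLL1. Against shControl, the shNFIB library was therefore lower at day 0, by -1.92 (-2.01 to -1.83), and higher at day 5, by 1.80 (1.67 to 1.93). The shMLL1 library showed the same crossing, with -1.24 (-1.30 to -1.18) and 1.45 (1.33 to 1.57). In shKDM4D the sign also differed between the days, within 2-fold: -0.51 (-0.57 to -0.45) and 0.76 (0.62 to 0.90).

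Slc7a11 (chr3:49892526-50443614, minus strand) encodes xCT, which imports cystine in exchange for glutamate and so feeds glutathione synthesis. Its level was low, at 2.56 RPKM in shControl and 2.67 in shKDM4D at day 0, and 0.589 in shNFIB and 0.775 in shMLL1. At day 5 the 4 lines lay between 0.613 (shControl) and 0.940 RPKM (shMLL1). The 4 day 5 libraries and the 2 low day 0 libraries thus spanned less than the gap to shControl and shKDM4D at day 0. Its log2 ratio to shControl at day 0 was -2.12 (-2.38 to -1.87) in shNFIB and -1.73 (-1.90 to -1.56) in shMLL1, but 0.06 (-0.08 to 0.20) in shKDM4D. At day 5 the ratios of the 3 knockdown lines were all above 0 and within 2-fold, at 0.44 (0.15 to 0.74) in shKDM4D, 0.59 (0.29 to 0.90) in shNFIB and 0.62 (0.36 to 0.88) in shMLL1. Over time it was lower by -2.06 (-2.31 to -1.82) in shControl and -1.68 (-1.89 to -1.47) in shKDM4D. In shNFIB it was 0.65 (0.34 to 0.96), which came to 0.04 after quantile normalization and 0.09 with Gapdh as the reference. In shMLL1 it was 0.28 (0.09 to 0.47), which turned to -0.57 after quantile normalization.

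The promoter of Slc7a11 is shown here with that of Slc1a4, the other member with the 8-base CARE core TGATGNAA (N is any base, read on both strands), and that of Chac1, a glutathione-degrading enzyme known as an ATF4 target. Sequences are from RefSeq (GRCm38.p6), 5′ to 3′ on the strand of the gene, 100 bases each, with the core in capitals.
Slc7a11, chr3:50443614-50443713, minus strand, positions -100 to -1 from the start of the transcript: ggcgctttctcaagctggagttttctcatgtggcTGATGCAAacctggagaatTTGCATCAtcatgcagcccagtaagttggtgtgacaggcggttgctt
Slc1a4, chr11:20332710-20332809, minus strand, positions -96 to 4: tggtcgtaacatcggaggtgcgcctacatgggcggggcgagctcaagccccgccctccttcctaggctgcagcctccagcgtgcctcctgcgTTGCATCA
Chac1, chr2:119351012-119351111, plus strand, positions -230 to -131: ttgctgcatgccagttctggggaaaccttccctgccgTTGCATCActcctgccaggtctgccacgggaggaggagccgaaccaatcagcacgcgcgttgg

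The core occurred in Slc7a11 on both strands, at -66 to -59 and at -47 to -40, and in Slc1a4 once, at the start site itself. Of the 10 members, 6, with 9 promoters, matched the promoter table (Slc7a1, Slc7a11, Slc3a2, Slc1a4, Slc38a2 and Slc6a9), and 2 of these 6 held the core, against 4.51% of all 27025 genes with a promoter in the table (250 bases before to 50 after each start). The antioxidant response core TGACNNNGC, which binds NRF2, was found in Slc7a1, Slc38a2 and Slc6a9 and in 14.0% of all these genes, and the E-box CACGTG in no member and in 8.09% of all. No motif overlapped another in the members, and a match of letters is not a bound site.

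Slc7a1 (chr5:148327410-148399904, minus strand) encodes CAT1, a carrier of arginine and lysine. It was highest in shControl at day 0, at 7.85 RPKM, and lay between 5.59 and 5.90 in the 3 knockdown lines. At day 5 the values of shControl, shKDM4D, shNFIB and shMLL1 were 1.74, 1.80, 3.78 and 2.99. All 4 lines were lower at day 5, by -2.17 (-2.33 to -2.02), -1.64 (-1.79 to -1.48), -0.57 (-0.70 to -0.43) and -0.98 (-1.08 to -0.88) on the log2 scale in that order. The shNFIB library was higher than shControl at day 5, with 1.12 (0.94 to 1.30). Slc7a3 (chrX:101079210-101086020, minus strand), which encodes the related carrier CAT3, had between 0 and 20 reads per library (0 to 0.139 RPKM), with 3 reads or fewer in 5 of the 8 libraries. Its 20 reads in shMLL1 at day 5, against 2 in shControl, gave a log2 ratio of 2.34 with a counting interval of 0.30 to 5.48, and the level stayed far below the expression filter.

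Slc1a4 (chr11:20302180-20332713, minus strand) encodes ASCT1, which carries serine, alanine and cysteine. Its RPKM at day 0 was 9.71 in shControl and 9.50 in shKDM4D, against 3.74 in shNFIB and 3.67 in shMLL1. At day 5 the lines stood at 4.78, 4.51, 5.00 and 5.79. The day 0 libraries formed a high pair and a low pair, as for Slc7a11, and the day 5 libraries lay between them. The ratio to shControl was -1.38 (-1.58 to -1.18) in shNFIB and -1.40 (-1.56 to -1.25) in shMLL1 at day 0, but 0.06 (-0.16 to 0.29) and 0.28 (0.10 to 0.46) at day 5. Over time it was lower in shControl, by -1.02 (-1.20 to -0.85), and in shKDM4D, by -1.07 (-1.26 to -0.89), both close to the 2-fold limit, and the ratios of shNFIB and shMLL1 were 0.42 (0.18 to 0.66) and 0.66 (0.50 to 0.81). The shNFIB ratio turned to -0.15 with Gapdh as the reference.

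Slc1a5 (chr7:16781340-16798274, plus strand) encodes ASCT2, a glutamine exchanger, and differed from the other members in being higher at day 5 in all 4 lines. It went from 3.24 to 8.79 RPKM in shControl, from 2.86 to 3.81 in shKDM4D, from 1.30 to 2.42 in shNFIB and from 1.79 to 4.93 in shMLL1. The log2 ratios were 1.44 (1.26 to 1.63), 0.42 (0.17 to 0.66), 0.90 (0.53 to 1.27) and 1.46 (1.26 to 1.66). At day 5 it was lower than in shControl in each knockdown line, by -1.20 (-1.39 to -1.02) in shKDM4D, -1.86 (-2.12 to -1.61) in shNFIB and -0.83 (-0.98 to -0.68) in shMLL1. In shControl the 2 ASCT genes changed places: Slc1a5 was at 0.333 times the level of Slc1a4 at day 0 and 1.84 times at day 5, while in the knockdown lines Slc1a5 stayed below Slc1a4 on both days (0.301 to 0.852 times). The adipocyte markers were also highest in shControl at day 5 (summed RPKM above), and their part in the result was not tested.

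Slc38a1 (chr15:96571418-96642913, minus strand) encodes SNAT1. Its RPKM for shControl, shKDM4D, shNFIB and shMLL1 was 3.81, 3.53, 1.26 and 2.30 at day 0, and 2.16, 1.93, 0.989 and 1.35 at day 5. All lines were lower at day 5, by less than 2-fold, and shNFIB was lowest on both days, with ratios to shControl of -1.60 (-1.76 to -1.44) and -1.13 (-1.34 to -0.92). Slc38a2 (chr15:96687392-96699730, minus strand), close to it on the chromosome, encodes SNAT2, the carrier of alanine and glutamine that cells raise on amino acid shortage or in hypertonic medium. It was at 29.9, 33.2, 25.7 and 32.4 RPKM at day 0 and at 34.6, 38.6, 18.2 and 17.6 at day 5, in the order shControl, shKDM4D, shNFIB and shMLL1. Its day 0 libraries were close together, and the lines parted at day 5. The change was 0.21 (0.16 to 0.26) in shControl and 0.22 (0.17 to 0.27) in shKDM4D, against -0.50 (-0.57 to -0.43) in shNFIB and -0.88 (-0.93 to -0.84) in shMLL1. At day 5 it was lower than in shControl in shNFIB, by -0.93 (-0.99 to -0.86), and in shMLL1, by -0.98 (-1.03 to -0.92), both just short of 2-fold. Slc38a2 thus stood opposite to Slc3a2 and Slc7a5, which were higher than shControl in both lines at that time.

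Slc6a9 (chr4:117834506-117875198, plus strand) encodes GlyT1. For shControl, shKDM4D, shNFIB and shMLL1 its RPKM was 6.53, 4.02, 0.813 and 2.07 at day 0 and 0.765, 1.34, 0.774 and 1.37 at day 5. The highest library was shControl at day 0, and the day 5 libraries together with shNFIB at day 0 lay within 0.765 to 1.37. The change in shControl, -3.09 (-3.45 to -2.75), and the ratio of shNFIB to shControl at day 0, -3.01 (-3.36 to -2.67), were of like size, and shNFIB itself did not differ between days beyond counting error (-0.07, -0.57 to 0.43). The shMLL1 library lay between, at -1.66 (-1.83 to -1.49) against shControl at day 0, and shKDM4D was nearer to shControl, at -0.70 (-0.87 to -0.53). Of its exons, 27.8% of the length overlaps Ccdc24 on the opposite strand, a gene with 0.0691 to 0.479 RPKM, and the sources do not say whether reads were counted by strand.

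The order of levels shifted with time. In shControl at day 0 it was Slc7a5, Slc3a2, Slc38a2, Slc1a4, Slc7a1, Slc6a9, Slc38a1, Slc1a5, Slc7a11 and Slc7a3. At day 5 Slc3a2 led, at 38.7% of the summed RPKM of the 10 genes, followed by Slc38a2 at 33.9%, with Slc7a5 down from 35.0% to 8.86%. At day 5 Slc7a5 and Slc1a5 were neighbours, at 9.03 and 8.79 RPKM. Over the 10 genes the RPKM of shControl, shKDM4D, shNFIB and shMLL1 summed to 183, 161, 84.2 and 102 at day 0, and to 102, 130, 117 and 116 at day 5. At day 0 the sums spread more widely than at day 5.

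**Figure D2:**
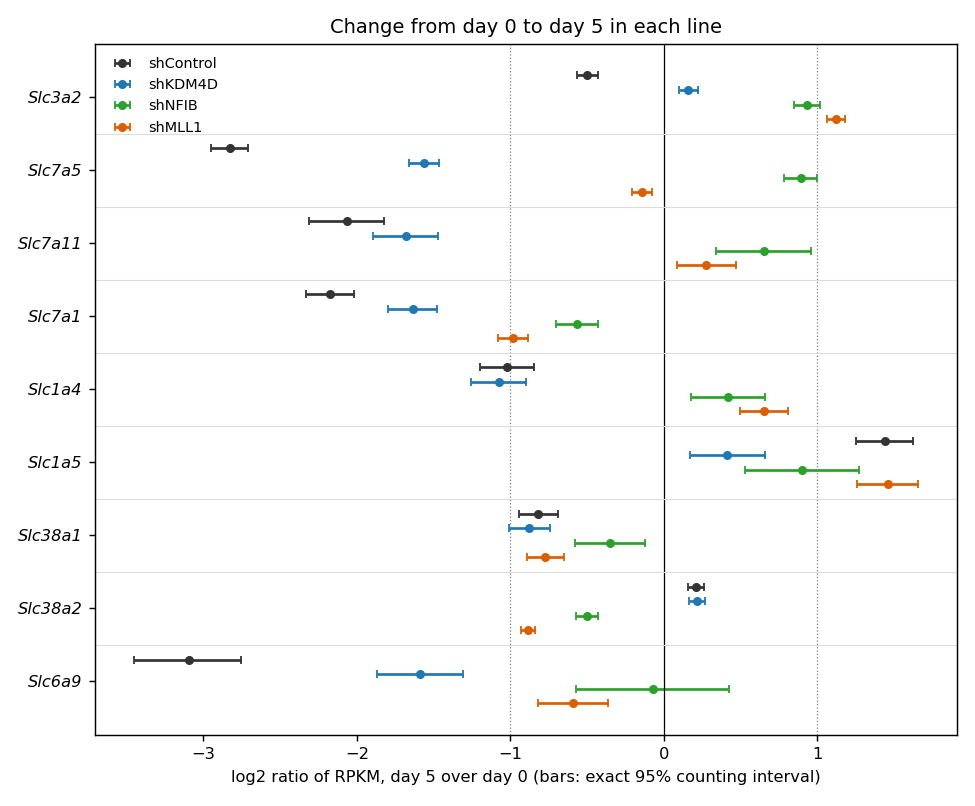
Log2 ratio of RPKM at day 5 over day 0 (horizontal axis) for the 9 members above the expression filter, 1 point per line, with exact 95% counting intervals as bars; the dotted lines mark 2-fold. The shControl and shKDM4D points lie to the left of the shNFIB and shMLL1 points for Slc3a2, Slc7a5, Slc7a11, Slc7a1, Slc1a4 and Slc6a9, and to the right for Slc38a2.

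Counted over the 9 expressed members, the time course of shControl had 5 lower at day 5 (Slc7a1, Slc7a5, Slc7a11, Slc1a4 and Slc6a9) and 1 higher (Slc1a5), where 8.56% of all expressed genes were lower and 13.0% higher. In shKDM4D the same 5 genes were lower and none was higher, against 8.44% and 12.8% of all genes. Slc7a11 passed the filter only through day 0 of shControl (2.56 RPKM) and of shKDM4D (2.67). Its calls as lower in these lines were therefore largely fixed by the filter. In shNFIB no member passed 2-fold, with 4.96% of all genes lower and 12.6% higher. In shMLL1 no member was lower and 2 were higher (Slc3a2 and Slc1a5), with 6.89% lower and 20.4% higher of all genes. The shMLL1 count depended on the scaling: 1 was higher and 3 lower after quantile normalization, and 1 was higher and 2 lower with median-of-ratios scaling. For shControl, shKDM4D, shNFIB and shMLL1 the median log2 ratios of the members were -1.02, -1.07, 0.42 and -0.14, beside 0.03, 0.03, 0.09 and 0.17 over all expressed genes.

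The difference between a knockdown line and shControl in this change was taken as the difference of the 2 log2 ratios, with its 95% counting interval. For Slc7a5 it was 1.27 (1.12 to 1.42) in shKDM4D, 3.72 (3.56 to 3.88) in shNFIB and 2.69 (2.55 to 2.82) in shMLL1. For Slc7a11 it was 0.38 (0.07 to 0.70), 2.71 (2.33 to 3.10) and 2.34 (2.04 to 2.65), and for Slc6a9 1.51 (1.08 to 1.94), 3.02 (2.44 to 3.61) and 2.50 (2.10 to 2.91). For Slc1a4 and Slc38a1 the shKDM4D line differed from shControl by no more than counting error, -0.05 (-0.30 to 0.20) and -0.06 (-0.24 to 0.13). These differences all share the 2 shControl libraries.

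Taken as pairs within a line, with the 4 lines standing as replicates although 3 carry different knockdowns, the change from day 0 to day 5 had one sign in 4 of 4 lines for 4 members. The mean log2 change was 1.05 ± 0.50 (SD, n = 4 lines) for Slc1a5, -1.34 ± 0.71 for Slc7a1, -0.70 ± 0.24 for Slc38a1 and -1.34 ± 1.33 for Slc6a9, where the shNFIB change lay within counting error. Each gave p = 0.125 in a two-sided exact permutation test that flips the signs of the 4 changes, the smallest p that 4 pairs allow. Any gene with one sign in all 4 lines gives this p whatever the size of its changes, so it adds nothing to the signs. The other 5 members moved in both directions, and their p from the same exact test was 0.375 to 0.75. This pairing was added after the values were seen, with no adjustment over the 9 genes.

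**Figure D3:**
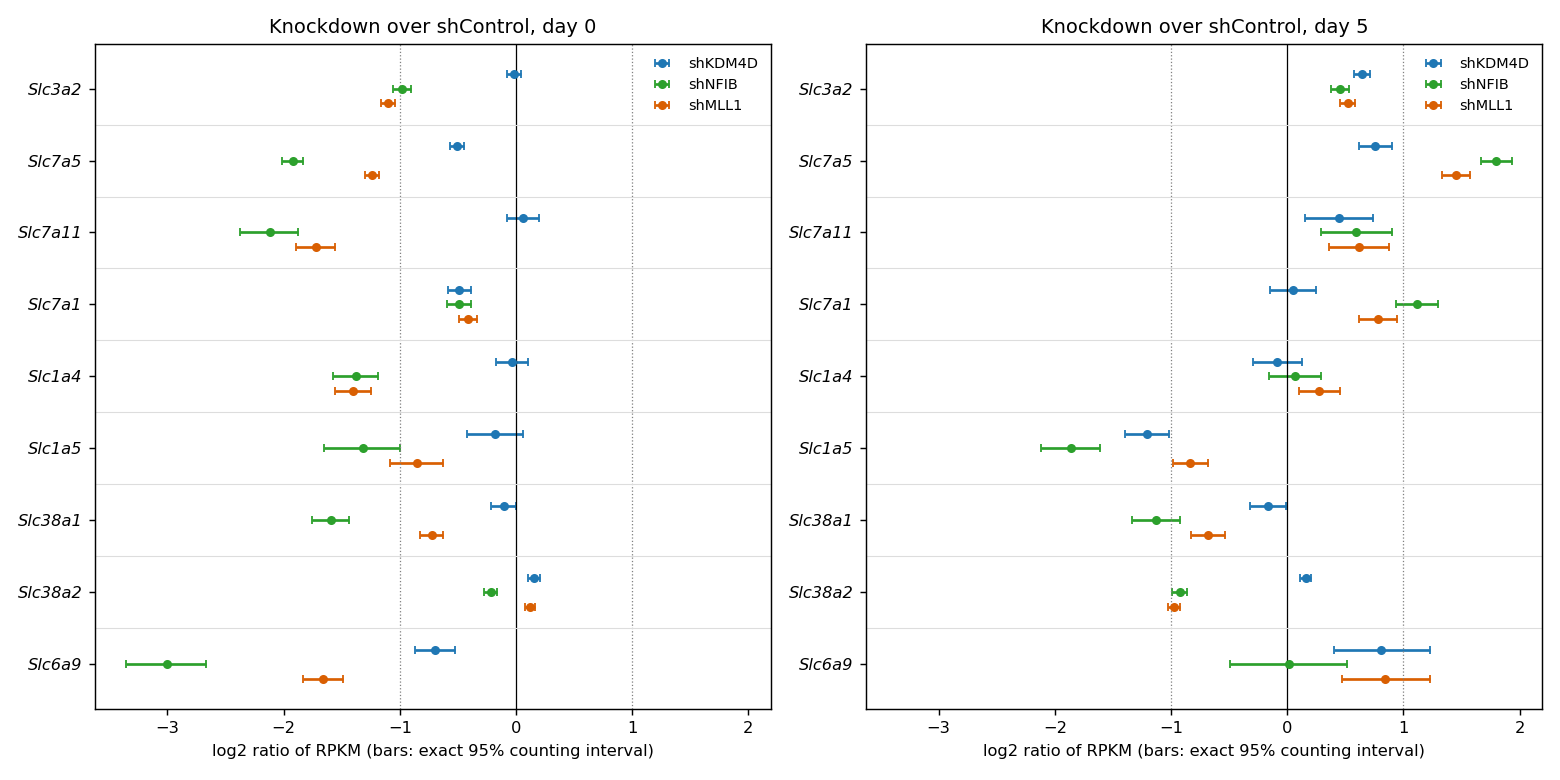
Log2 ratio of RPKM of each knockdown line over shControl at day 0 (left) and day 5 (right) for the 9 expressed members, with exact 95% counting intervals as bars and dotted lines at 2-fold. At day 0 the shNFIB intervals all lie below 0, whereas at day 5 Slc7a5 lies above 0 in all 3 lines and Slc1a5 below 0 in all 3.

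Against shControl at day 0, no member differed by more than 2-fold in shKDM4D, where 1.98% of all expressed genes were higher and 4.26% lower. In shNFIB 6 of 9 were lower (Slc7a5, Slc7a11, Slc1a4, Slc1a5, Slc38a1 and Slc6a9) and none was higher, against 6.05% lower and 2.95% higher of all genes. In shMLL1 5 were lower (Slc7a5, Slc7a11, Slc3a2, Slc1a4 and Slc6a9) and none was higher, against 7.43% and 1.67%. Slc7a11 is in both counts, but it passed the filter only through day 0 of shControl and shKDM4D. Its calls as lower were therefore largely fixed by the filter. The medians of the members were -0.11, -1.38 and -1.10, and those of all genes -0.00, 0.03 and -0.07. With Gapdh as the reference, whose own RPKM at day 0 ranged from 158.7 in shNFIB to 326 in shKDM4D, the shNFIB count came to 3 lower.

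All these ratios rest on 1 shControl library at day 0. With shKDM4D at day 0 in its place, a reference chosen after the values were seen, shNFIB had 6 members lower, the same 6 genes, with 4.57% of all genes higher in shKDM4D and 3.67% lower. In shMLL1 the count came to 3 lower (Slc7a11, Slc3a2 and Slc1a4), with 6.43% and 3.2% of all genes higher and lower in shKDM4D. The limit that the filter sets on the Slc7a11 calls holds for this reference too. Between shNFIB and shMLL1 the ratio of shNFIB over shMLL1 was -1.35 (-1.72 to -0.99) for Slc6a9 and 0.03 (-0.19 to 0.24) for Slc1a4.

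At day 5, shKDM4D had 1 member lower than shControl (Slc1a5) and none higher, against 4.57% lower and 1.88% higher of all genes. After quantile normalization it had 1 lower and 1 higher. In shNFIB 2 were higher (Slc7a1 and Slc7a5) and 2 lower (Slc1a5 and Slc38a1), against 5.54% and 5.67%. In shMLL1 1 was higher (Slc7a5) and none lower, against 5.25% and 4.02%, but quantile normalization and median-of-ratios scaling each gave 1 higher and 1 lower, and Gapdh as the reference gave 1 higher and 3 lower. With shKDM4D at day 5 as the reference, shNFIB had 2 members higher (Slc7a1 and Slc7a5) and 1 lower (Slc38a2), where 4.21% of all genes were higher and 6.14% lower in shKDM4D. In shMLL1 the single call turned: Slc7a5, at 1.61 times shKDM4D, no longer passed 2-fold, and Slc38a2 was lower, with 3.75% of all genes higher and 7.0% lower in shKDM4D. The medians of the members against shControl were 0.16, 0.06 and 0.52, and those of all genes 0.01, 0.09 and 0.07.

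**Figure D4:**
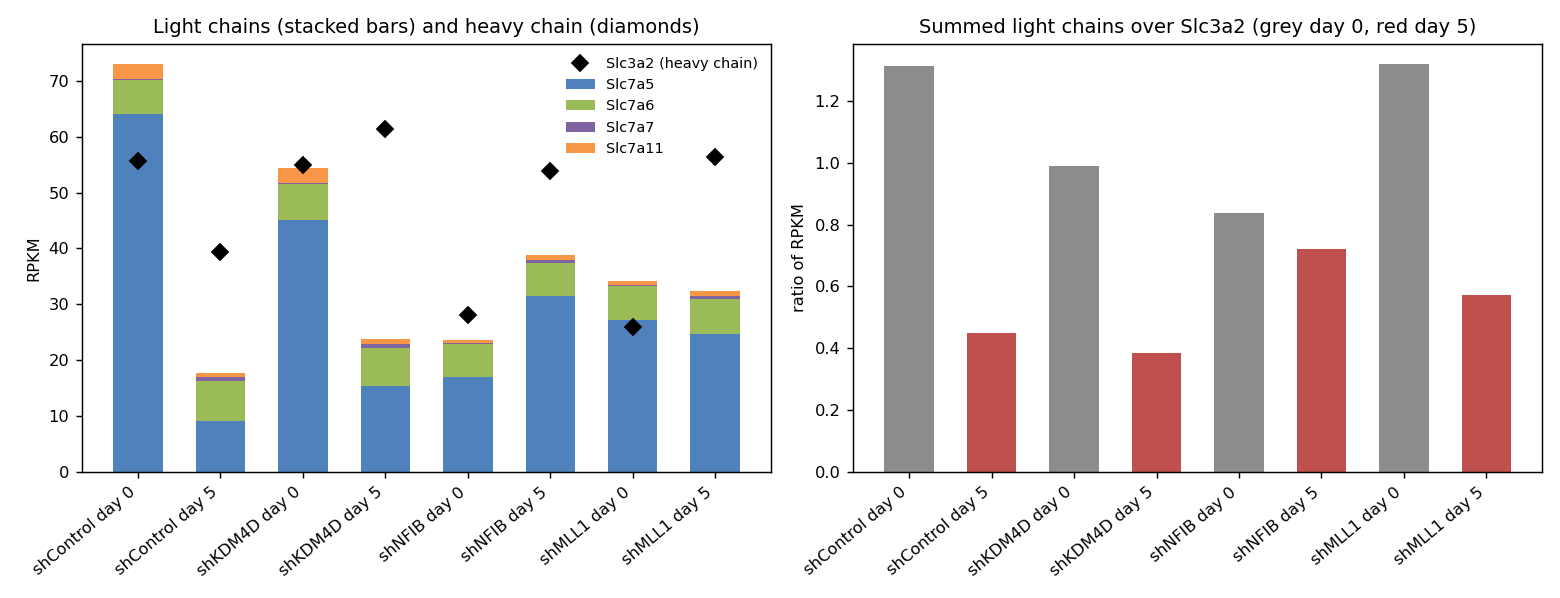
Left, RPKM of the light chain genes Slc7a5, Slc7a6, Slc7a7 and Slc7a11 (stacked bars) and of the heavy chain gene Slc3a2 (diamonds) in the 8 libraries; right, the ratio of the summed light chains to Slc3a2. The ratio is lower at day 5 than at day 0 in every line, from 1.31 to 0.448 in shControl and from 0.838 to 0.721 in shNFIB.

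Because each light chain needs 4F2hc, the summed RPKM of the 6 light chain genes (Slc7a5, Slc7a6, Slc7a7, Slc7a8, Slc7a10 and Slc7a11) was set beside that of Slc3a2. The ratios for shControl, shKDM4D, shNFIB and shMLL1 were 1.31, 0.990, 0.838 and 1.32 at day 0, and at day 5 they were 0.448, 0.386, 0.721 and 0.573. It was lower at day 5 in all 4 lines. In shMLL1 Slc3a2 was higher while the light chains stayed near their level (34.2 and 32.4 RPKM), and in shControl the light chains were lower by more than Slc3a2 was (73.0 and 17.7 RPKM). Slc7a5 made up between 51.1% (shControl, day 5) and 87.8% (shControl, day 0) of the light chain sum. Slc7a6, which encodes y+LAT2, was nearly level, at 5.88 to 7.19 RPKM, and Slc7a10 was listed at 0 in every library.

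The genes whose profiles were most like those of 4 members were sought among 6631 genes with a mean RPKM of at least 5, by Pearson's r of log2 RPKM over the 8 libraries, which share lines and days. They were Sesn2 (0.96), Wbp2 (0.93) and Ubr2 (0.93) for Slc3a2, and Bid (0.97), Asns (0.96) and Mthfd2 (0.96) for Slc7a5. For Slc7a11 they were Aldh1l2 (0.97), Atf4 (0.96) and Lonp1 (0.96), and for Slc38a2 Sec24d (0.95), Sdc3 (0.94) and Gdi2 (0.91). Among the members themselves, Slc7a11 and Slc1a4 had the closest profiles (0.95), and Slc7a1 and Slc1a5 the most opposed (-0.70).

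**Figure D5:**
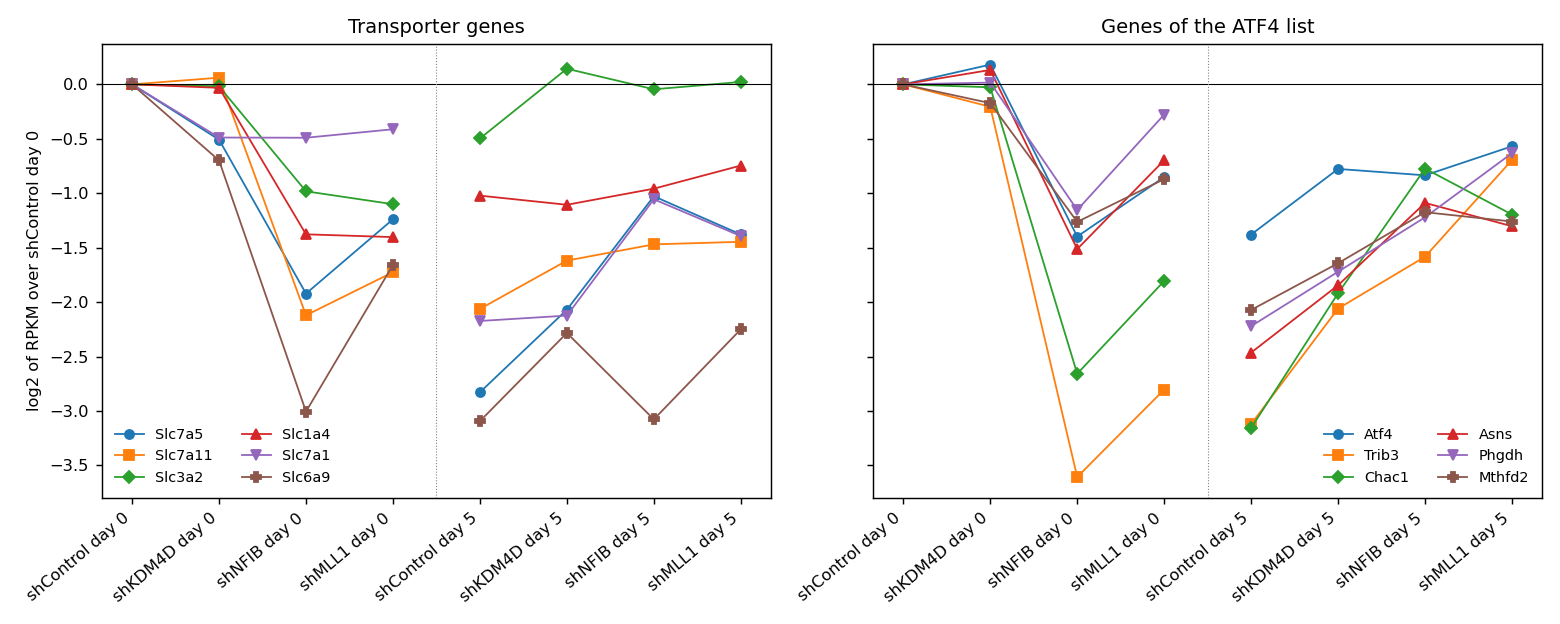
Log2 of RPKM over shControl day 0 in the 8 libraries, for 6 transporter genes (left) and 6 genes of the ATF4 list (right); lines join libraries of the same day for legibility only. In both panels shNFIB at day 0 is lower than shKDM4D at day 0 for every gene except Slc7a1, whose log2 difference was 0.00.

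ATF4 and its targets were followed beside the transporters. Atf4 itself was at 187, 212, 70.9 and 104 RPKM at day 0 and 71.9, 109, 105 and 126 at day 5, in the order shControl, shKDM4D, shNFIB and shMLL1. Trib3, a pseudokinase gene, was at 27.9, 24.2, 2.29 and 4.003 at day 0 and 3.21, 6.71, 9.33 and 17.3 at day 5, and Chac1 at 21.7, 21.3, 3.44 and 6.204, then 2.43, 5.74, 12.7 and 9.47. As for Slc7a5, shControl held the highest or nearly the highest value at day 0 and the lowest at day 5. The list holds no transporter and has 20 expressed genes. Over time, 13 were lower and 1 higher in shControl, and 12 lower and 0 higher in shKDM4D. Of all genes, 8.56% and 8.44% were lower and 13.0% and 12.8% higher. In shNFIB 0 were lower and 5 higher, and in shMLL1 2 were lower and 5 higher. Of all genes, 4.96% and 6.89% were lower and 12.6% and 20.4% higher in these 2 lines. Against shControl at day 0, 1 was lower in shKDM4D, 17 in shNFIB and 10 in shMLL1, and none was higher. Of all genes, 4.26%, 6.05% and 7.43% were lower and 1.98%, 2.95% and 1.67% higher. At day 5, 2, 6 and 7 were higher and 2, 1 and 1 lower. Of all genes, 1.88%, 5.54% and 5.25% were higher and 4.57%, 5.67% and 4.02% lower. Gpt2, which makes glutamate from alanine, was lower in all 3 knockdown lines at day 5 (18.0 RPKM in shControl, 4.19 to 5.47 in the others). Ddit3, which encodes CHOP, is listed under 2 symbols and was not counted. Its row with reads stood at 27.7 RPKM at day 0 and 253 at day 5 in shMLL1, against 88.5 and 57.6 in shControl. In shNFIB it stood at 26.9 and 106, and in shKDM4D at 62.1 and 58.3. Over time in shControl, Atf4, Trib3 and Chac1 were lower together with the 5 transporter genes counted as lower. Slc3a2 and Slc38a1 were also below their day 0 level, by less than 2-fold, while Slc1a5 and Slc38a2 stood above theirs. In shNFIB and shMLL1, Atf4, Trib3 and Chac1 were above their day 0 level together with Slc3a2, Slc7a11, Slc1a4 and Slc1a5. Slc7a1, Slc38a1 and Slc38a2 were below their day 0 level in these 2 lines, and Slc7a5 was above it in shNFIB alone. Slc6a9 was below it in shMLL1, with -0.59 (-0.82 to -0.37), and within counting error of it in shNFIB. The part of the ATF4 genes in the result was not tested.

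Of 29 other plasma membrane amino acid transporter genes, 6 passed the expression filter. In shControl 4 were higher at day 5 (Slc1a3, Slc6a6, Slc36a2 and Slc43a2) and none lower, beside 13.0% and 8.56% of all genes. Slc36a2 passed the filter only through shControl at day 5 (1.16 RPKM, and 0 at day 0), so its call was fixed by the filter. The median log2 ratio, which leaves out Slc36a2, was 1.19. Slc6a6, the taurine transporter gene, went from 32.0 to 72.7 RPKM in shControl and from 47.8 to 115.5 in shKDM4D, but from 42.6 to 35.0 in shNFIB and from 47.8 to 29.95 in shMLL1. Slc1a3, a glutamate carrier gene, was above its day 0 level at day 5 in each line (12.6 and 39.9 in shControl, 5.99 and 20.9 in shNFIB). Slc7a2, the third arginine carrier gene, was at 34.1 and 48.3 RPKM in shControl and 12.5 and 61.0 in shMLL1. Slc7a1 was below it on both days, at 7.85 and 1.74 in shControl and 5.90 and 2.99 in shMLL1. In shControl and shKDM4D these 3 genes were above their day 0 level at day 5, where Slc7a1, Slc7a5 and Slc6a9 were below it. Of 5 expressed lysosomal amino acid transporter genes, 2 were higher over time in shMLL1 (Slc38a7 and Ctns), where 20.4% of all genes were, and 1 was lower than shControl in shMLL1 at day 0 (Slc38a7), where 7.43% of all were. None passed 2-fold in the other 8 comparisons.

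The 14 genes of NRF2 and glutathione synthesis, among which xCT is usually counted, had at most 3 of 14 past 2-fold in a comparison, 1 higher and 2 lower over time in shMLL1, beside 20.4% and 6.89% of all genes. Gclm, a subunit of the rate-limiting enzyme of glutathione synthesis, was lower at day 5 in shControl (6.30 and 2.79 RPKM), shNFIB (6.06 and 2.81) and shMLL1 (6.15 and 2.94), and Nfe2l2, the gene of NRF2, lay between 34.3 and 46.1 RPKM throughout. At day 0, 0 of 14 were lower in shNFIB and in shMLL1, beside 6.05% and 7.43% of all genes. At day 5 Gpx4 was at 255 RPKM in shControl, against 126 in shKDM4D, 143 in shNFIB and 149 in shMLL1. G6pdx was at 69.7 in shControl and 43.1 to 68.0 in the knockdown lines at day 5. Gsr went the other way, at 14.7 in shControl and 18.5 to 26.3 in the knockdown lines. Among 13 expressed genes that use glutamine, arginine, serine or branched-chain amino acids, Glul, which makes glutamine, went from 9.22 to 132 RPKM in shControl, 13.4 to 72.9 in shKDM4D, 11.8 to 23.7 in shNFIB and 9.48 to 60.6 in shMLL1. At day 5 Glul, Gpt and Bcat2 were lower than in shControl in shNFIB and shMLL1 (3 of 13 in each, beside 5.67% and 4.02% of all genes). Gpt passed the filter only through day 5 of shControl (5.75 RPKM) and of shKDM4D (1.01), so its call was largely fixed by the filter. In shNFIB and in shMLL1, 2 of 13 were higher, beside 5.54% and 5.25% of all genes. Among them was Ass1, an enzyme of arginine synthesis, at 42.0 RPKM in shControl, 90.9 in shNFIB and 88.1 in shMLL1. Of 17 amino acid sensing genes upstream of mTORC1, at most 4 passed 2-fold in a comparison, all higher over time in shMLL1, beside 20.4% of all genes, with Sesn1 at 7.22 and 20.9 RPKM and Sesn3 at 4.84 and 13.0 RPKM in shControl.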

How the data were processed

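RNA of 8 C3H10T1/2 libraries (4 lines, 2 days, 1 library each) was sequenced by the authors with a SMARTer kit. Per the study's methods, reads were mapped to GRCm38/mm10 in CLC Genomics Workbench. The deposited values are RPKM, calculated by the authors per gene symbol without a filter. Strand use in counting is not given in the sources used here.

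RPKM values were used as deposited. Multiplied by the exon length of the GENCODE M21 gene models and the library depth, 96.2 to 96.5% of low values gave whole reads within 0.02, and all 80 member values did, so reads and exact (Clopper-Pearson) 95% intervals of log2 ratios were computed (Python 3.11.15, SciPy 1.17.1). These intervals cover counting error only, and PCR duplicates would widen them. Intervals and read recovery were tested on simulated data. Genes with RPKM above 1 in at least 1 library were kept (11513), a fold of 2 was the call, and with 1 library per condition the p-values given are those of an exact sign-flip test of day 5 against day 0 over the 4 lines.

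A pair of rRNA-like genes took 7.95 to 10.5% of reads at day 0 and 3.07 to 3.62% at day 5, which lowers other RPKM values at day 0 slightly. Alternatives were added constants, quantile and median-of-ratios scaling, Gapdh as reference, removal of the rRNA-like genes, and other filters. Named genes were all members, the targeted genes, Atf4, Ddit3, Trib3, Chac1, Nfe2l2 and Myc, the 3 genes most like each of 4 members, and up to 4 genes per related list with the largest mean day 5 ratio. Asns, Mthfd2, Aldh1l2 and Sesn2 entered by likeness, Vim and Nt5e as markers, and Ccdc24, Slc7a7, Slc7a8 and Slc7a10 to account for overlaps and light chains. Myc was not called in any knockdown comparison. The members and lists were chosen with earlier results of these data known. Protein sequences were not analysed here.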

Additional observations from a re-analysis of the deposited data

Results flagged for a closer look

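In 10 cases a member moved one way from day 0 to day 5 in shControl and the other way in a knockdown line, with both counting intervals away from 0. The share of all expressed genes that meet this rule was not computed, so the count of 10 has nothing to be read against. The values are differences of log2 changes, knockdown line minus shControl, and with 1 library per condition the difference between lines was not tested against replicates. For Slc7a5 in shNFIB the difference was 3.72 (0.89 against -2.83). For Slc7a11 it was 2.71 in shNFIB (0.65 against -2.06) and 2.34 in shMLL1 (0.28 against -2.06). For Slc3a2 it was 0.66 in shKDM4D (0.16 against -0.50), 1.43 in shNFIB (0.94) and 1.62 in shMLL1 (1.12). For Slc1a4 it was 1.44 in shNFIB (0.42 against -1.02) and 1.68 in shMLL1 (0.66). The opposite sign depended on the scaling for Slc1a4 in shNFIB, whose change was -0.15 with Gapdh as the reference, and for Slc7a11 in shMLL1, whose change was -0.57 after quantile normalization. The Slc7a11 change in shNFIB kept its sign but came to 0.04 after quantile normalization and 0.09 with Gapdh as the reference. For Slc38a2 the sign was the other way, -0.71 in shNFIB (-0.50 against 0.21) and -1.09 in shMLL1 (-0.88). The shControl libraries are common to all 10.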

How the results depend on the processing

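Counts of members past 2-fold moved by more than 1.5 times in these cases. Gapdh as the reference gave 2 in place of 0 for shNFIB over time, 1 in place of 0 for shKDM4D over shControl at day 0, 3 in place of 6 for shNFIB at day 0 and 4 in place of 1 for shMLL1 at day 5. Quantile normalization gave 4 in place of 2 for shMLL1 over time, and 2 in place of 1 at day 5 for shKDM4D and for shMLL1, the latter also with median-of-ratios scaling. Adding 1 to every RPKM gave 2 in place of 4 for shNFIB at day 5. Without a filter, Slc7a3, at 20 reads or fewer, added 1 for shNFIB over time (1), shKDM4D at day 0 (1) and shMLL1 at day 5 (2). With shKDM4D as the reference, chosen after seeing the data, shMLL1 at day 0 had 3 in place of 5, and at day 5 its count of 1 was kept but went from 1 higher (Slc7a5) to 1 lower (Slc38a2). For shNFIB the count stayed 6 at day 0 and came to 3 in place of 4 at day 5. Gapdh itself differed between libraries, and its use shifted the median of all genes by -0.56 to 0.64 (log2), against -0.27 to 0.10 with quantile, -0.21 to 0.09 with median-of-ratios scaling and -0.11 to 0.01 without the rRNA-like genes.

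Of the single log2 ratios whose counting interval excluded 0, 7 changed sign under an alternative. Ratios with 0 inside that interval have no settled sign and were not counted. With Gapdh as the reference Slc7a1 in shNFIB at day 0 became 0.15, Slc1a4 in shNFIB over time -0.15 and in shMLL1 at day 5 -0.081, and Slc38a2 at day 0 -0.25 in shKDM4D, 0.42 in shNFIB and -0.095 in shMLL1. With quantile normalization Slc7a11 in shMLL1 over time became -0.57. The cause of these changes was not tested. Taking depth from ratios of low values alone left the reads over the members within counting error in all 8 libraries. Lines have no replicate to pair, and pairing the days within lines gave no p under 0.125, the smallest an exact permutation test of 4 pairs allows.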
